A study of Mus musculus with 15 samples.

Results

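The axon guidance genes of NMuMG mouse mammary epithelial cells and their PCBP1-deficient derivatives were examined by RNA-Seq. The set holds every gene in the expression files whose symbol belongs to the semaphorins, plexins, neuropilins, Slits, Robo receptors, netrins, the netrin receptors of the Unc5, Dcc and neogenin families, or the neuron navigators. It came to 46 genes of the 15701 in either file, with 41 in the first dataset, 45 in the second and 40 in both. By family these were 19 semaphorins, 9 plexins, 2 neuropilins, 3 Slits, 3 Robo receptors, 4 netrins, 3 netrin receptors (Neo1, Unc5b and Unc5c) and 3 navigators. The genes were collected by name, around the prior observation that Nav3 was lost in both knockouts, so Nav3 is described there without a test and is left out of the counts of every comparison with a knockout.

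All lines came from NMuMG, a wild-type mouse mammary epithelial line. Dataset 1 held 11 libraries, each from 1 line and all with shRNA knockdown of PCBP1, an RNA-binding protein. The shPCBP1 group had 4 lines: CT clones 1 to 3, which received Cas9 without a gene-specific guide, and the line they were made from, left unaltered. The knockouts, made with pairs of CRISPR guides, were 3 clones without FAM3C (FAM3C KO), 3 without LIFR (LIFR KO) and 1 line without either (double KO). FAM3C is a secreted cytokine-like protein, and LIFR is the receptor of leukemia inhibitory factor, which signals through STAT3. Dataset 2, made earlier and normalized apart, held 2 NMuMG libraries, labelled as untreated and named in the study as cells with a non-targeting shRNA, and 2 shPCBP1 libraries. The labels do not say whether the 2 libraries of a group in dataset 2 came from separate cultures, so their spread may be technical, and in dataset 1 a clone and its genotype cannot be told apart for any single line.

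Semaphorins are secreted or membrane-bound cues that act through plexins, with the neuropilins Nrp1 and Nrp2 as co-receptors for most secreted class 3 members. Slits act through Robo receptors, and netrins act through Dcc, neogenin (Neo1) and the Unc5 receptors. These pairs were first described for growing axons and also steer cell adhesion, migration and branching in epithelia, the mammary gland among them. The navigators Nav1, Nav2 and Nav3 are large cytoskeletal proteins that bind microtubules, and they take part in neurite outgrowth and cell migration downstream of such cues.

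Values are CPM as deposited, read counts scaled to a common library total. In dataset 2 the lowest value of a library (0.0001 CPM) stands for no reads. In dataset 1 the lowest value was itself taken as the step of a single read, so it may stand for no reads or for 1 read. These steps implied 16031859 to 46901675 reads per library in dataset 1 and the steps between low values 53032111 to 56496537 in dataset 2. Of the targeted genes, Pcbp1 stood at 287 and 312 CPM in NMuMG and at 14.1 and 14.2 CPM in shPCBP1 of dataset 2. Fam3c stood at 26.4 to 42.9 CPM in FAM3C KO against 47.0 to 59.4 CPM in the shPCBP1 lines of dataset 1, and Lifr at 14.6 to 34.9 CPM in LIFR KO against 25.8 to 40.2 CPM. Reads outside the excised exon piece are counted, so these levels do not check the knockouts. Of 8 mesenchymal markers 7 were tested in dataset 2, and all 7 were higher in shPCBP1, with summed levels of 535 to 556 CPM in NMuMG and 1316 to 1350 CPM in shPCBP1. Of the luminal epithelial markers Cdh1, Krt8 and Krt19 were lower there and Krt18 was higher, with summed levels of 2917 to 2970 CPM in NMuMG and 2766 to 2823 CPM in shPCBP1. Mitochondrial genes took 6.63 to 6.84% of the summed CPM in NMuMG and 4.75 to 4.81% in shPCBP1. The part of these shifts in the differences below was not tested.

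In dataset 1 marker levels moved with some of the groups. The 5 luminal markers in the file summed to 2466 to 3166 CPM in the shPCBP1 lines, 2001 to 3024 CPM in FAM3C KO and 1212 to 2092 CPM in LIFR KO, and the 8 mesenchymal markers to 1802 to 2044, 2079 to 2237 and 1302 to 1942 CPM. The 3 neuronal markers of 8 in the file (Map2, Elavl3 and Elavl4) summed to 2.68 to 10.95 CPM in the shPCBP1 lines, 13.9 to 28.9 CPM in FAM3C KO and 1.66 to 34.6 CPM in LIFR KO. FAM3C KO thus lay above the shPCBP1 lines in the mesenchymal and neuronal sums, and LIFR KO lay below them in the luminal sum. In FAM3C KO the mesenchymal sum was mostly Vim and the neuronal sum mostly Map2. Of the mesenchymal markers Cdh2, Zeb1 and Zeb2 lay above all shPCBP1 lines there, and Vim, Fn1 and Snai2 overlapped them. Twist1 (0.0384 to 0.0443 against 0.0808 to 3.62 CPM) and Twist2 (5.59 to 18.7 against 20.8 to 29.5 CPM) lay below them. Elavl3 was lower in mean (0.863 against 1.18 CPM) and Elavl4 higher (0.767 against 0.311 CPM). The 4 leukocyte markers, mostly Cd14 and without Ptprc, summed to 150 to 172, 126 to 172 and 97.5 to 179 CPM in the same order, and the 3 endothelial markers to at most 2.24 CPM in any library. The part of these markers in the knockout results was not tested.

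LIFR KO clones 2 and 3 and the double KO stood apart from the other 8 libraries of dataset 1. The rank correlation between the GC content of a gene and its deviation from the mean of the shPCBP1 lines (the others, for such a line) was -0.76, -0.75 and -0.71 in these 3 libraries and -0.29 to 0.24 in the others. It is given as a description over 12603 genes that share a library. The same 3 libraries had 7.22, 7.16 and 8.58% of their summed CPM in mitochondrial genes, against 3.14 to 4.06% in the other 8, and the part of this in the results was not tested. The guidance genes were GC-rich, with a median GC content of 55.0% over the 39 tested against 50.1% over all genes tested. The counts of genes past the threshold in LIFR KO are therefore given also with a correction for GC content and without clones 2 and 3, and the counts without overlap between groups are given as deposited.

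RefSeq promoters (250 bases before to 50 after the start, GRCm38.p6) were found for 38 of the 46 genes, 50 promoters in all. Nav3, Sema6a, Sema3f and Plxna4 are among those without an entry. The motif of STAT factors, TTCNNNGAA, was in 1 of the 50, the start of Sema3e (2% against 8.30% of 32851 promoters), and the E-box CANNTG was in 27 (54% against 72.3%). Both motifs read the same on either strand in their fixed letters, the matches of the 2 motifs did not overlap in the sequences shown, and a match is a run of letters and not a site. The genes that the results below turn on are shown. They are Sema3e at chr5:14025026-14025325 on the plus strand and Sema4f at chr6:82939720-82940019 on the minus strand. For Nav2, 2 RefSeq starts are shown, at chr7:48958823-48959122 and chr7:49245939-49246238 on the plus strand. Both lie downstream of the gene start in the GENCODE M21 annotation, chr7:48908716. Capitals mark CANNTG and, at the 3' end of Sema3e, TTCNNNGAA.
Sema3e: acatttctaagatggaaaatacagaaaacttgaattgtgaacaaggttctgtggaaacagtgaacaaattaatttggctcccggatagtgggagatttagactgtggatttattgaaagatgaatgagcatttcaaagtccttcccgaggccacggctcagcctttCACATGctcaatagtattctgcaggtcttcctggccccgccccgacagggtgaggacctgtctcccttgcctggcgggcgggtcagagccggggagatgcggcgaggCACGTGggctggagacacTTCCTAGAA
Sema4f: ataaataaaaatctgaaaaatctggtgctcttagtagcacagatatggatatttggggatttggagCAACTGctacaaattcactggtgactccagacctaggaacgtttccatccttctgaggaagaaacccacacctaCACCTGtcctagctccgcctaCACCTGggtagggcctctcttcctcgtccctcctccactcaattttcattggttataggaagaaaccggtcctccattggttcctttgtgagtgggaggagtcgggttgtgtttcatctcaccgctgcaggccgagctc
Nav2, first start: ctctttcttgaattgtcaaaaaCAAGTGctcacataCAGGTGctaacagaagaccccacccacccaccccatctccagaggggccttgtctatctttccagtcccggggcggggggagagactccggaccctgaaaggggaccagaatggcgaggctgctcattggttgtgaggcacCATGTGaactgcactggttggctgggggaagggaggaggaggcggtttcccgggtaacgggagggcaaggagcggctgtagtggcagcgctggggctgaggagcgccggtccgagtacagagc
Nav2, second start: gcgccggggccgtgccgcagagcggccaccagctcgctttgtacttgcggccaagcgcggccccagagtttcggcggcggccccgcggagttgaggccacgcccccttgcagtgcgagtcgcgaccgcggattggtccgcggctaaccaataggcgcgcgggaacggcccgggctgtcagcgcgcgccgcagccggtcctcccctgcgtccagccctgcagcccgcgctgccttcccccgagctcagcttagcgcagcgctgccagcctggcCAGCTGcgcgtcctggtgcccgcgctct

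Per kilobase of the longest protein-coding transcript, receptors led in the shPCBP1 lines of dataset 1. Plxnb2, a receptor of class 4 semaphorins, stood at 109 ± 12 CPM per kilobase (SD, n = 4), followed by Unc5b at 58.2 ± 5.57, Nrp1 at 45.0 ± 5.55 and Plxna1 at 34.8, with ranges of 94.3 to 122 for Plxnb2, 50.6 to 63.8 for Unc5b, 38.0 to 49.7 for Nrp1 and 31.2 to 37.4 for Plxna1. The ranges of these 4 receptors did not overlap. The leading ligands were Sema3c at 26.3 (21.9 to 33.8) and Sema3e at 22.2 (21.3 to 23.1), which overlapped each other and Nav2 at 21.6 (21.1 to 22.3). In NMuMG of dataset 2, Plxnb2 at 33.1 and Unc5b at 32.1 CPM per kilobase led, and Nav2 was at 0.245. In shPCBP1 of dataset 2, Unc5b at 50.7 stood above Plxnb2 at 44.7, unlike in dataset 1, and Nav2 was at 2.75. The datasets were normalized apart, so levels are not compared between them.

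The first question was what loss of PCBP1 did to these genes, and dataset 2 answers it for 29 of its 45 members. The other 16 had a mean under 0.5 CPM and were not tested: Nav3, Ntn5, Plxnb3, Plxnc1, Robo3, Robo4, Sema3a, Sema3d, Sema3g, Sema5a, Sema6a, Sema6c, Sema7a, Slit1, Slit2 and Unc5c. Of the 29, 28 differed between shPCBP1 and NMuMG at an adjusted p under 0.07 (limma), where 80.1% of all 11384 genes tested did so. They split into 15 higher and 13 lower, against 42.1% and 38.0% of all genes. Where a change of 1.5-fold or more was also required, 10 were higher and 9 lower, against 16.0% and 15.1% of all genes. The remaining one, Sema3f, stood at 6.92 and 7.28 CPM in NMuMG and at 5.90 and 6.76 CPM in shPCBP1 (adjusted p = 0.109). Among the genes that passed, Sema4f, Plxna4 and Ntn1 reached the filter only through shPCBP1, and Slit3 and Sema4g only through NMuMG. Their tests were favoured by that selection. The median log2 fold change was 0.27 over the 29 and 0.02 over all genes. It did not hold without single libraries: without the first shPCBP1 library it was -0.07, without the second 0.02, and without either NMuMG library 0.35, with 13 to 15 of the genes below 0 in each of these fits.

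**Figure D1:**
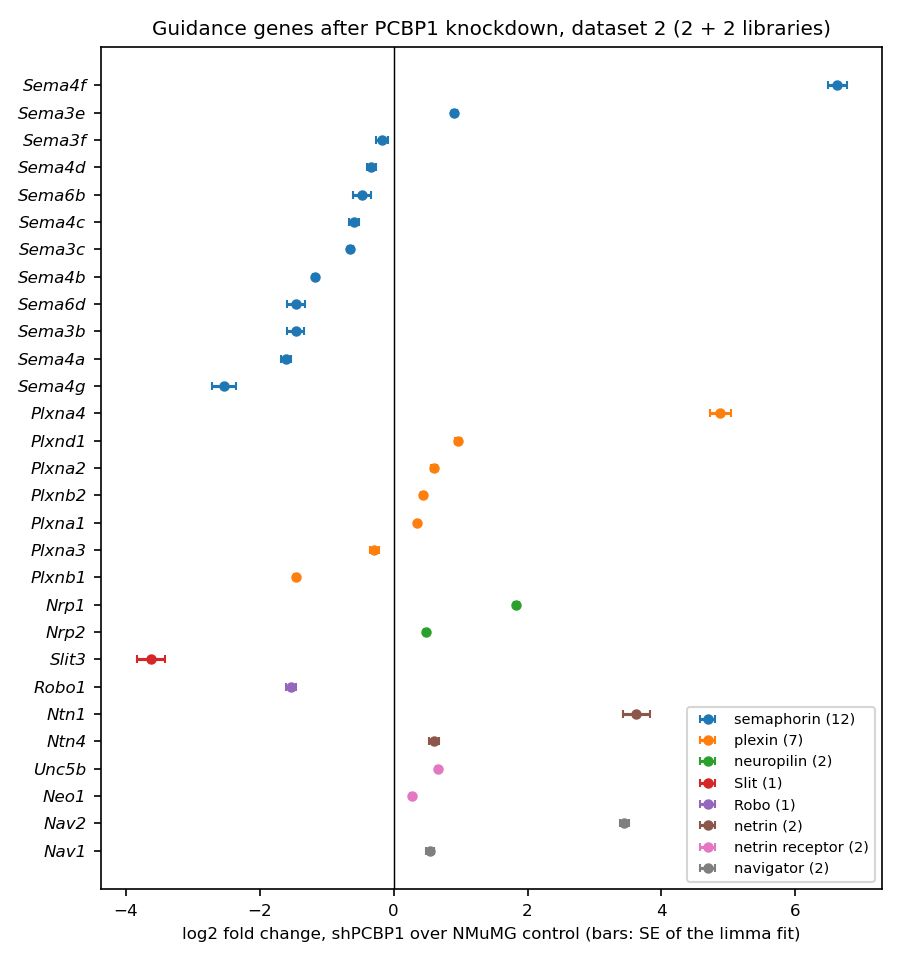
Log2 fold change of shPCBP1 over NMuMG (x axis) for the 29 guidance genes tested in dataset 2 (y axis, grouped and coloured by family), with bars for the standard error of the limma fit over 2 + 2 libraries. Sema4f at 6.62 and Plxna4 at 4.88 lie farthest right, and Slit3 and Sema4g lie farthest left.

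Among the semaphorins, Sema4f went against its class. This membrane-bound class 4 semaphorin stood at 0.0532 and 0.0755 CPM in NMuMG, a few reads per library, and at 16.6 and 15.6 CPM in shPCBP1. The rise was 98.5-fold on the log2(CPM + 0.1) scale, which understates the change of low genes (log2 fold change 6.62 ± 0.14 SE, adjusted p = 1.36e-11). Its class members Sema4a, Sema4b, Sema4c, Sema4d and Sema4g all fell.

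Sema4g fell from 1.63 and 1.53 CPM to 0.161 and 0.222 CPM (log2 fold change -2.53, adjusted p = 1.76e-07). Sema4a fell from 18.1 and 17.4 CPM to 6.02 and 5.53 CPM (-1.60, adjusted p = 2.95e-09). For the others of class 4 the log2 fold changes were -1.17 for Sema4b, -0.58 for Sema4c and -0.33 for Sema4d. Of the secreted class 3, Sema3b (-1.46) and Sema3c (-0.64) fell, and Sema3e, a ligand of Plxnd1, rose from 32.6 and 32.5 CPM to 61.0 and 61.5 CPM (log2 fold change 0.91). Sema6d (-1.46) and Sema6b (-0.48) were lower as well. Of the 12 semaphorins tested, 2 therefore rose, 9 fell and 1 did not pass.

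The receptors mostly went the other way. Plxna4, a signalling receptor for class 3 and class 6 semaphorins, rose from 0.248 and 0.170 CPM to 9.18 and 8.65 CPM (29.4-fold, log2 fold change 4.88 ± 0.15 SE, adjusted p = 2.62e-10). Nrp1 rose from 19.2 and 19.6 CPM to 70.4 and 68.0 CPM (3.56-fold, adjusted p = 7.46e-12), and Nrp2 rose 1.40-fold. Plxnd1, Plxna2, Plxnb2 and Plxna1 rose with log2 fold changes of 0.96, 0.61, 0.44 and 0.35. The plexins that fell were Plxnb1, the receptor of Sema4d, from 69.1 and 68.8 CPM to 25.3 and 24.8 CPM (log2 fold change -1.46, adjusted p = 1.75e-11), and Plxna3 (-0.29). In each gene named here the 2 libraries of one group lay on the same side of both libraries of the other.

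The Slit and the Robo receptor that were tested both fell, but the untested ones did not all go that way. Slit2 was higher in shPCBP1 in mean (0.708 against 0.0284 CPM), as was Robo3 (0.246 against 0.121 CPM). Slit1 was lower (0.0995 against 0.198 CPM), and Robo4 was at the lowest value throughout. Slit3, a secreted ligand, stood at 1.33 and 0.962 CPM in NMuMG and at the lowest value in both shPCBP1 libraries. Against a floor of 3 reads per library it was at least 21-fold lower in shPCBP1 (adjusted p = 4.33e-08). Slit3 reached the filter (mean 0.572 CPM) only through NMuMG, where it is high, so its test was favoured by the filter. Robo1, a receptor of Slits, fell from 12.9 and 12.7 CPM to 4.44 and 4.27 CPM (log2 fold change -1.53, adjusted p = 7.41e-09).

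Both netrins that were tested rose. Ntn1, the founding netrin, stood at the lowest value and at 0.0190 CPM in NMuMG, which is about 1 read in both libraries together, and at 1.22 and 1.28 CPM in shPCBP1 (log2 fold change 3.63, adjusted p = 2.14e-08). The ratio of reads was 137 with an exact binomial 95% interval of 24.1 to 5431, which covers counting error only. Ntn1 reached the filter (mean 0.628 CPM) only through shPCBP1, where it is high, so its test was favoured by the filter. Ntn4 rose 1.52-fold, and the receptors Unc5b (1.58-fold) and Neo1 (1.21-fold) rose as well.

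Of the navigators, Nav2 rose from 2.89 and 2.66 CPM to 31.2 and 31.1 CPM (10.9-fold, log2 fold change 3.45 ± 0.07 SE, adjusted p = 1.04e-11). Nav1 rose from 11.6 and 12.6 CPM to 17.9 and 17.3 CPM (1.45-fold, adjusted p = 5.81e-06). Nav3 was low in all 4 libraries, at 0.0532 and 0.113 CPM in NMuMG and 0.305 and 0.240 CPM in shPCBP1, under the filter. Sema6a, also under the filter, was at the lowest value in both NMuMG libraries and at 0.986 and 0.942 CPM in shPCBP1, at least 17.6-fold higher against the same floor of 3 reads per library.

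Dataset 1 asks which of these genes depended on FAM3C or LIFR in cells that had already lost PCBP1. Of its 41 members 39 were tested, and Plxnb3 and Sema7a, with at most 0.515 and 0.384 CPM in any library, were under the filter. Both knockouts are set against the same 4 shPCBP1 lines, so their values are given side by side, and any likeness between them rests in part on those shared lines. In the next paragraphs the values are listed for the unaltered shPCBP1 line, CT clones 1 to 3, FAM3C KO clones 1 to 3 and LIFR KO clones 1 to 3.

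**Figure D2:**
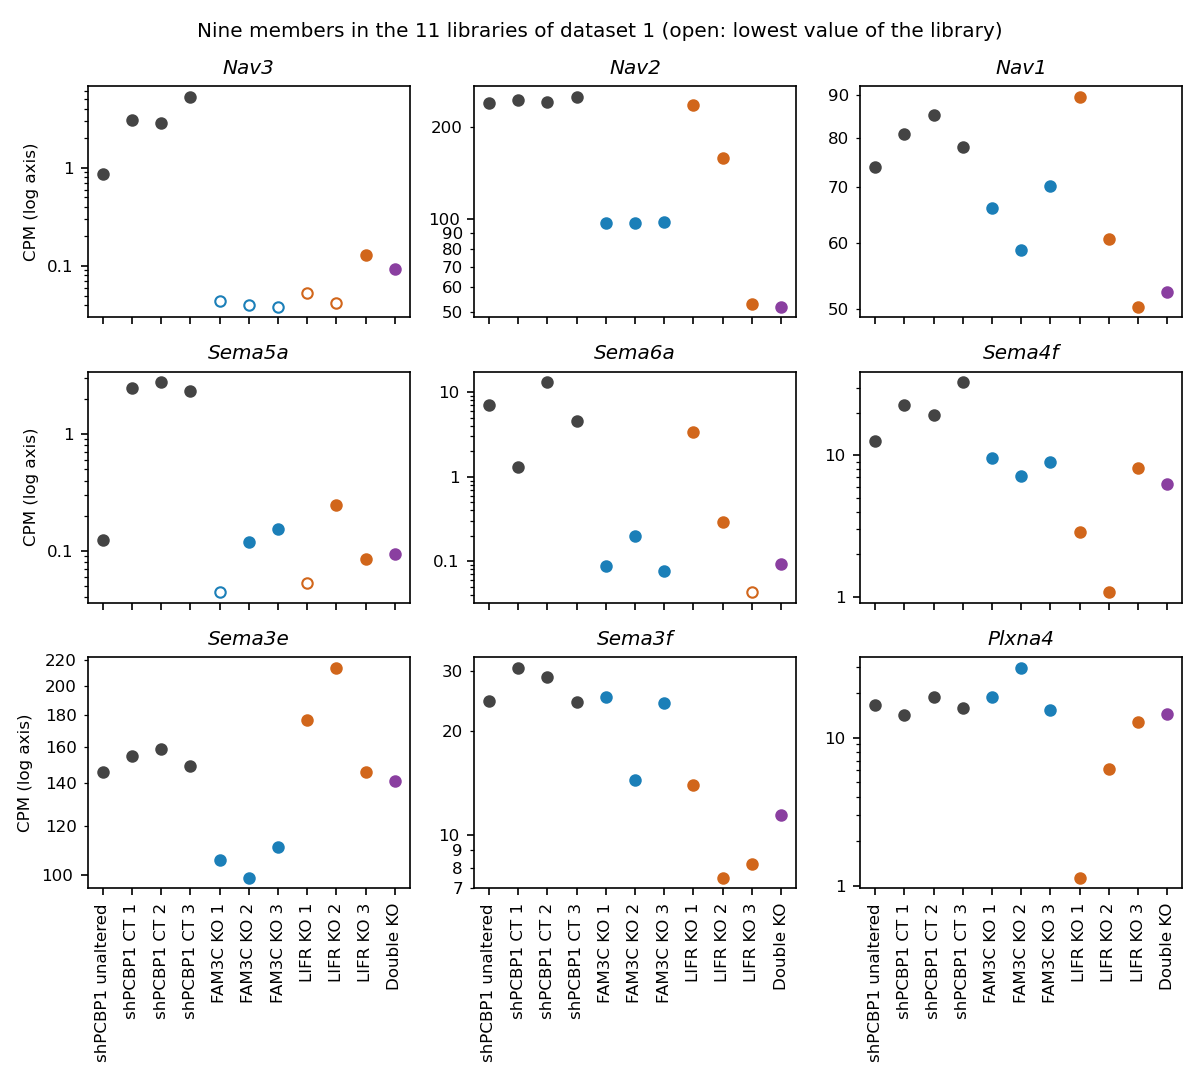
CPM on log axes for 9 guidance genes in the 11 libraries of dataset 1 (x axis; grey shPCBP1 lines, blue FAM3C KO, orange LIFR KO, purple double KO), where each point is 1 library and open points are at the lowest value of that library. Nav3 is at or near the lowest value in all 7 knockout libraries, Nav2 is tightly grouped at 97.2 to 98.2 CPM in FAM3C KO, and Sema5a in the unaltered line lies with the knockouts.

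Nav3 stood at 0.873 CPM in the unaltered line, at 3.09, 2.83 and 5.33 CPM in the CT clones, and at the lowest value (0.0443, 0.0400 and 0.0384 CPM) in each FAM3C KO clone. In LIFR KO clones 1 and 2 it was at the lowest value (0.0536 and 0.0416 CPM) and in clone 3 at 0.129 CPM. Against a floor of 3 reads per library, Nav3 was at least 24.7-fold lower in FAM3C KO than the mean of the 4 shPCBP1 lines (3.03 CPM). The CT clones raise that mean, so the bound does not hold for the unaltered line at 0.873 CPM. Loss of Nav3 was the observation the gene set was built around. The double KO, which that observation did not use, held 0.0937 CPM of Nav3. The CT clones held on average 4.29 times the Nav3 level of the unaltered line.

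Nav2 was at 239 CPM in the unaltered line and at 246, 242 and 252 CPM in the CT clones. It was at 97.4, 97.2 and 98.2 CPM in the FAM3C KO clones and at 237, 158 and 53.1 CPM in the LIFR KO clones. The FAM3C KO clones were thus all below every shPCBP1 line, with a spread of 0.519 CPM (SD, n = 3), and the LIFR KO clones ran from just under the shPCBP1 lines in clone 1 down to 53.1 CPM in clone 3.

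Nav1 was at 74.0, 80.9, 85.2 and 78.1 CPM in the shPCBP1 lines. It was at 66.0, 58.9 and 70.2 CPM in FAM3C KO, all below the shPCBP1 lines, and at 89.7, 60.6 and 50.3 CPM in LIFR KO, which overlapped them.

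Of the semaphorins, Sema4f stood at 12.5, 22.7, 19.4 and 32.8 CPM in the shPCBP1 lines, at 9.61, 7.2 and 9.03 CPM in FAM3C KO and at 2.90, 1.08 and 8.10 CPM in LIFR KO. All 6 single-knockout clones lay under the shPCBP1 lines. Sema6a, a membrane-bound ligand of A-type plexins, stood at 7.05, 1.32, 13.2 and 4.57 CPM, then at 0.0886, 0.200 and 0.0768 CPM in FAM3C KO and at 3.38, 0.291 and the lowest value (0.0429 CPM) in LIFR KO. The FAM3C KO clones did not overlap the shPCBP1 lines in Sema6a, whereas LIFR KO clone 1 did. Sema3e stood at 146, 155, 159 and 149 CPM, at 106, 99.0 and 111 CPM in FAM3C KO and at 177, 214 and 146 CPM in LIFR KO. Its FAM3C KO clones were below all other lines.

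Sema3f, a ligand of Nrp2, stood at 24.5, 30.7, 28.9 and 24.3 CPM, at 25.2, 14.4 and 24.2 CPM in FAM3C KO and at 13.9, 7.49 and 8.23 CPM in LIFR KO. Only the LIFR KO clones were all below the shPCBP1 lines. Sema4a stood at 11.7, 4.50, 12.1 and 4.19 CPM, at 16.1, 13.8 and 17.6 CPM in FAM3C KO and at 3.43, 3.20 and 8.62 CPM in LIFR KO. Sema6b stood at 11, 7.46, 9.13 and 4.50 CPM, at 15.8, 21.9 and 15.7 CPM in FAM3C KO and at 6.76, 4.33 and 5.40 CPM in LIFR KO. In both genes the FAM3C KO clones lay above every other single-knockout or shPCBP1 library. Sema6d was low throughout, at 0.749, 0.853, 1.74 and 1.34 CPM, at 0.487, 1.44 and 0.115 CPM in FAM3C KO and at 0.215, 0.624 and 0.172 CPM in LIFR KO.

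Among the plexins, Plxna4 stood at 16.7, 14.3, 18.8 and 15.8 CPM, at 18.9, 29.7 and 15.5 CPM in FAM3C KO and at 1.13, 6.11 and 12.7 CPM in LIFR KO. The LIFR KO clones were below all shPCBP1 and FAM3C KO lines and far apart among themselves. Plxnb2 stood at 747, 613, 794 and 688 CPM, at 753, 684 and 732 CPM in FAM3C KO and at 518, 269 and 459 CPM in LIFR KO. Plxnd1, the Sema3e receptor, stood at 64.3, 45.0, 55.0 and 53.1 CPM, at 87.3, 63.0 and 84.1 CPM in FAM3C KO and at 34.0, 12.6 and 36.4 CPM in LIFR KO. Both genes were lower in every LIFR KO clone than in any shPCBP1 or FAM3C KO line.

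Plxna1 stood at 329, 282, 310 and 338 CPM, at 362, 351 and 342 CPM in FAM3C KO and at 298, 167 and 197 CPM in LIFR KO. Plxna2 stood at 64.6, 74.2, 80.8 and 95.8 CPM, at 60.0, 45.2 and 51.2 CPM in FAM3C KO and at 57.8, 48.6 and 43.0 CPM in LIFR KO. Plxna3 stood at 22.6, 21.7, 17.2 and 24.8 CPM, at 34.0, 30.6 and 26.9 CPM in FAM3C KO and at 17.6, 10.3 and 17.7 CPM in LIFR KO. These 3 A-type plexins differed in pattern: Plxna2 was lower than in any shPCBP1 line in both knockouts, and Plxna1 and Plxna3 were higher in FAM3C KO alone. The netrin receptor Unc5c was near 1 CPM or below, at 0.624, 0.235, 0.647 and 0.618 CPM, at 0.841, 0.720 and 1.72 CPM in FAM3C KO and at the lowest value in LIFR KO clones 1 and 2, with 0.472 CPM in clone 3.

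**Figure D3:**
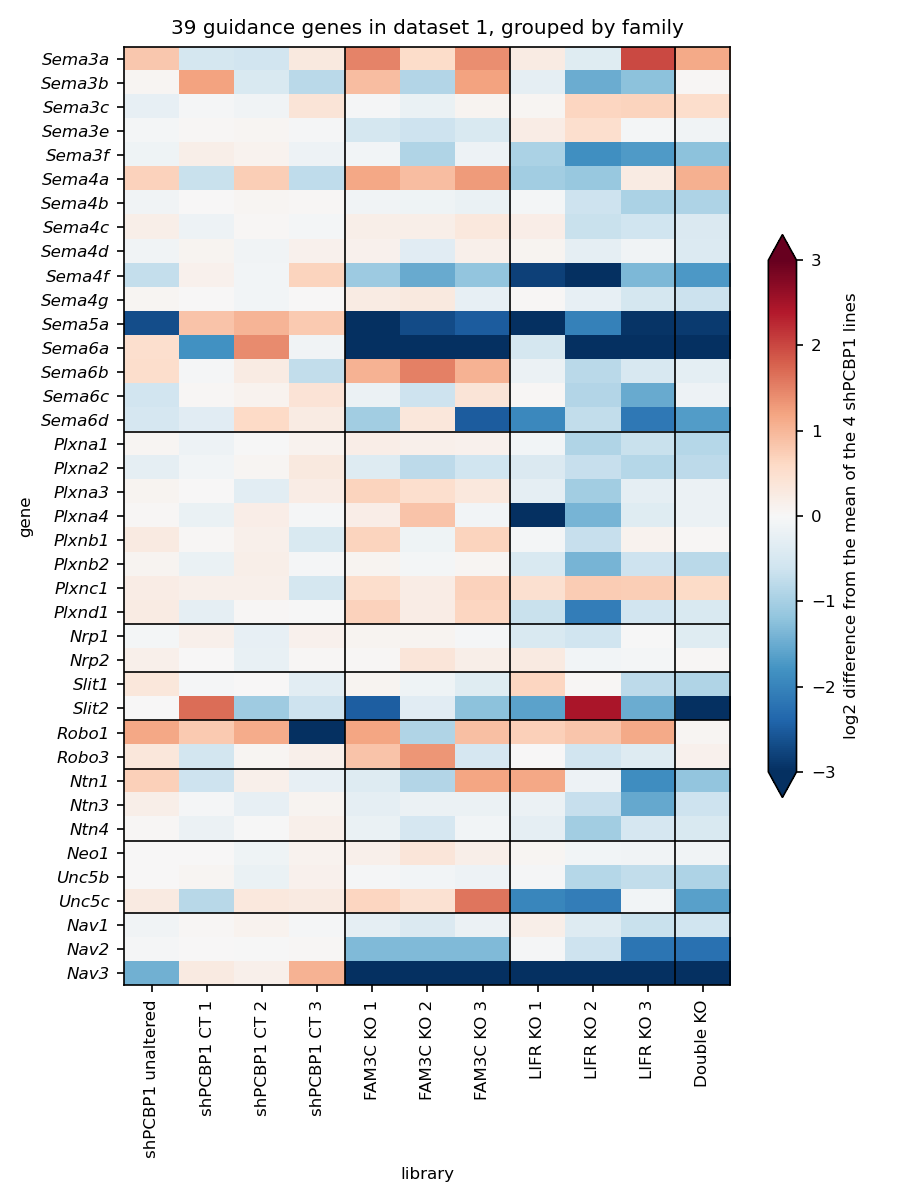
Log2 difference of each library from the mean of the 4 shPCBP1 lines (colour, clipped at -3 and 3) for the 39 guidance genes tested in dataset 1 (rows, grouped by family) in 11 libraries (columns). LIFR KO clones 2 and 3 and the double KO are blue in 29 to 32 of the 38 rows other than Nav3, whereas the FAM3C KO clones and LIFR KO clone 1 are mixed.

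In FAM3C KO against shPCBP1, 0 of the 38 other guidance genes passed an adjusted p of 0.07 in the fit of the 3 groups, where 0.309% of the 12621 genes tested did. Without an overlap between the groups, 6 genes were lower (Nav1, Nav2, Plxna2, Sema3e, Sema4f and Sema6a) against 12.5% of all genes, and 8 were higher (Neo1, Plxna1, Plxna3, Plxnc1, Sema4a, Sema4c, Sema6b and Unc5c) against 10.1%. At an unadjusted p under 0.05, 10 of the 38 passed in limma, and 10.2% of all genes did. The median log2 fold change was 0.01 over the 38 and -0.01 over all genes. The fits that left out the LIFR KO clones gave another count. Fitted with shPCBP1 alone, 8 of the 38 passed (8.29% of all genes), and the same 8 passed with LIFR KO clones 2 and 3 left out (8.38% of all genes). These were Nav1, Nav2, Plxna2, Sema3e, Sema4f and Sema6a, all lower in FAM3C KO, and Plxna3 and Sema6b, both higher.

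Nav2 had a log2 fold change of -1.33 ± 0.38 SE in the fit of the 3 groups (0.399-fold), with an adjusted p of 0.233 there and 1.14e-05 without LIFR KO clones 2 and 3. For Sema6a it was -4.54 ± 1.00 SE (adjusted p = 0.119 and 0.00937 in the same order), for Sema3e -0.53 ± 0.12 SE (0.132 and 0.00383), for Sema4f -1.26 ± 0.54 SE (0.451 and 0.0383) and for Sema6b 1.19 ± 0.29 SE (0.148 and 0.0445). In the exact two-sided permutation test over 4 and 3 lines, each gene without overlap reached p = 0.0571, the smallest this design allows. With the GC correction, Sema6a passed (adjusted p = 0.0613, 2.21% of all genes).

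Sema5a, an integral membrane semaphorin, is named after its values were seen. It was at 2.49, 2.79 and 2.34 CPM in CT clones 1 to 3 but at 0.125 CPM in the unaltered line, 20.4 times lower than the CT mean. The FAM3C KO clones held 0.0443 (the lowest value), 0.120 and 0.154 CPM and the LIFR KO clones 0.0536 (the lowest value), 0.250 and 0.0858 CPM, a range that holds the value of the unaltered line. The log2 fold changes of -2.83 in FAM3C KO (adjusted p = 0.235) and -2.72 in LIFR KO (0.0788) rest on the CT clones. Sema5a also reached the filter (mean 0.845 CPM) only through the CT clones.

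In LIFR KO against shPCBP1, 4 of the 38 genes other than Nav3 passed, all lower: Sema3f, Sema4f, Plxna2 and Plxnb2. Of all genes 6.47% passed, and 5.55% passed as lower. Of the 4 luminal markers tested, the keratin Krt18 passed in the same comparison (-0.72, adjusted p = 0.0663), and Krt8 (-0.96, 0.0701), Krt19 (-0.80, 0.0967) and Cdh1 (-0.04, 0.852) did not. Sema3f fell by 1.49 ± 0.25 SE on the log2 scale (0.356-fold, adjusted p = 0.0319), Sema4f by 2.75 ± 0.54 SE (0.148-fold, 0.0388), Plxna2 by 0.66 ± 0.16 SE (0.0514) and Plxnb2 by 0.82 ± 0.20 SE (0.0523). Without an overlap between the groups, 9 were lower (Nav2, Ntn4, Plxna2, Plxna4, Plxnb2, Plxnd1, Sema3f, Sema4f and Sema6d) against 13.2% of all genes, and 1 was higher (Plxnc1) against 3.95%. The median log2 fold change was -0.54 over the 38 and -0.16 over all genes, and 32 of the 38 were below 0.

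This shift went with GC content. With the GC correction the median over the 38 was -0.04 and over all genes 0.03, 22 of the 38 were below 0, and 0 of the 38 passed in limma (0.317% of all genes), with 11 at an unadjusted p under 0.05 (17.3% of all genes). By library the median difference of the 38 from the shPCBP1 mean was -0.07 in LIFR KO clone 1, -0.69 in clone 2, -0.58 in clone 3 and -0.46 in the double KO, against -0.12 to 0.08 in the FAM3C KO clones. Without LIFR KO clones 2 and 3, which leaves clone 1 as a lone library assumed to vary like the other groups, 2 of the 38 passed (2.22% of all genes): Sema4f (log2 fold change -2.79, adjusted p = 0.0222) and Plxna4 (-3.74, adjusted p = 0.00216). Without clone 1, on the contrary, 20 of the 38 passed, where 57.4% of all genes did.

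**Figure D4:**
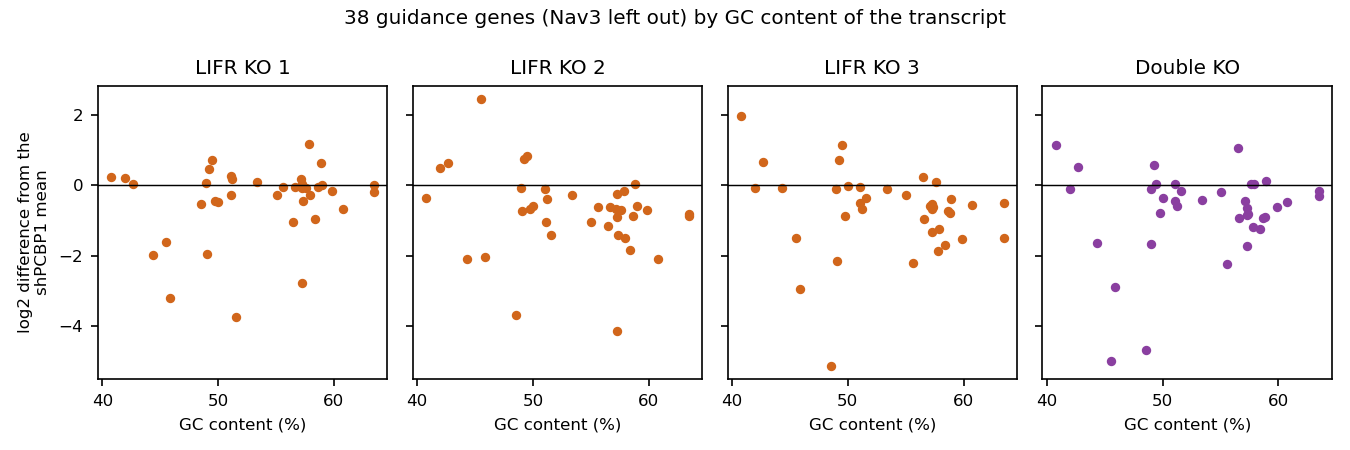
Log2 difference from the shPCBP1 mean (y axis) against the GC content of the transcript in percent (x axis) for 38 guidance genes in LIFR KO clones 1 to 3 and the double KO, 1 point per gene. Most genes above 55% GC lie below 0 in clones 2 and 3 and in the double KO, and most lie near 0 in clone 1.

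With the GC correction the log2 fold change of Sema4f was -2.24 and no longer passed (adjusted p = 0.114), and that of Plxna4, which had not passed as deposited, was -1.56 (0.271). For Sema3f it became -0.91 (0.0736), for Plxna2 -0.46 (0.144) and for Plxnb2 -0.30 (0.313). Sema6b changed sign, from -0.49 to 0.34. Nav2 went from -0.96 (adjusted p = 0.112) to -0.50 (0.445) and was at -0.05 in clone 1 alone.

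**Figure D5:**
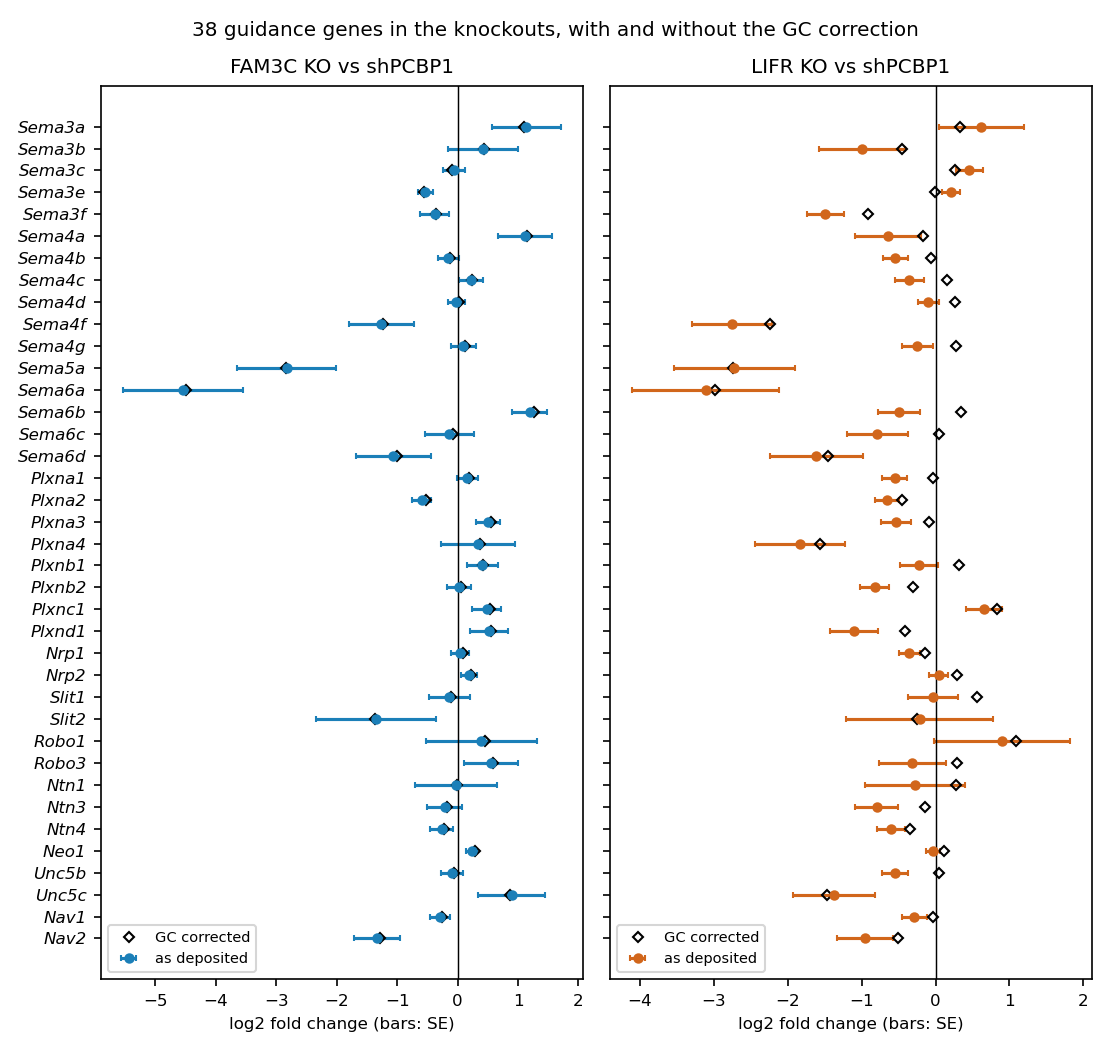
Log2 fold change against shPCBP1 (x axis) for 38 guidance genes (y axis, in family order) in FAM3C KO (left) and LIFR KO (right), with filled points and standard error bars as deposited and open diamonds after the GC correction. The diamonds lie on the filled points in FAM3C KO and mostly to the right of them in LIFR KO.

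Set directly against each other, the knockouts differed in 9 of the 38 genes, where 8.28% of all genes did (6.83% higher in FAM3C KO and 1.45% lower). Higher in FAM3C KO than in LIFR KO were Plxna1, Plxna3, Plxnb2, Plxnd1, Sema3f, Sema4a, Sema6b and Unc5c, with log2 differences of 0.71 to 2.27, and Sema3e was lower (-0.75, adjusted p = 0.0323). Unc5c, with the largest difference, reached the filter (mean 0.597 CPM) through its level in FAM3C KO, so its test was favoured by the filter. Without an overlap, 10 were higher in FAM3C KO against 16.1% of all genes and 1 was lower against 6.73%. The Sema3e and Plxnd1 pair, ligand and receptor, went opposite ways (-0.75 and 1.62). With the GC correction 0 of the 38 passed in limma (0.532% of all genes), with 13 at an unadjusted p under 0.05 (21.1% of all genes), and Sema3e then stood at -0.56 (adjusted p = 0.125). Against LIFR KO clone 1 alone, Sema3e (-0.75, adjusted p = 0.00511) and Plxnd1 (1.18, 0.0190) were among 10 that passed (9.45% of all genes).

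The double KO was 1 library and was not tested. Its Nav2 level of 51.9 CPM was below every FAM3C KO clone and next to LIFR KO clone 3 at 53.1 CPM, and its Sema6a (0.0937 CPM) and Sema4f (6.23 CPM) lay among the knockouts. For Sema3e it held 142 CPM, above the FAM3C KO clones, and for Plxna4 14.5 CPM, above the LIFR KO clones. Slit2, a ligand of Robo receptors, was at the lowest value (0.0468 CPM) in the double KO and at 25.7 CPM in LIFR KO clone 2, with 0.753 to 15.0 CPM in the other libraries. Robo1 stood at 1.10 CPM in CT clone 3 and at 5.16 to 22.1 CPM elsewhere.

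Genes raised at least 1.5-fold by the knockdown in dataset 2 were followed into the knockouts of dataset 1. All 10 such guidance genes were tested there, and 7 had a negative log2 fold change in FAM3C KO (56.4% of 1774 raised genes did) and 9 in LIFR KO (74.9%). In LIFR KO it was 8 with the GC correction (52.8% of all raised genes) and 8 in clone 1 alone (56.5%). In FAM3C KO the 7 were Nav2, Ntn1, Ntn4, Plxna2, Sema3e, Sema4f and Unc5b, and in LIFR KO as deposited Sema3e alone was above 0. Of the 8 genes lowered at least 1.5-fold by the knockdown and tested in dataset 1, 3 were below 0 in FAM3C KO (45.7% of 1576 lowered genes were) and 6 in LIFR KO (60.1%), or 4 with the GC correction (39.8%) and 5 in clone 1 alone (56.8%). Sema4f thus rose with loss of PCBP1 and was lower in all 6 single-knockout clones, Nav2 rose and was lower in all FAM3C KO clones, and Nrp1, which rose as well, stood at 156 to 171 CPM in FAM3C KO against 137 to 179 CPM in the shPCBP1 lines.

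A further 70 genes of the guidance pathways, co-receptors and other cues and the intracellular mediators, were read in the same fits. In dataset 2, 51 were tested, of which 23 rose and 21 fell with loss of PCBP1, where 42.1% of all genes rose and 38.0% fell, with a median log2 fold change of 0.02. The largest rises, in log2 fold change, were those of Gpc1 (8.30), Fyn (6.36) and Flrt2 (6.05). Of the genes named below as lower in LIFR KO, Ablim3, Dpysl5 and Kalrn rose here, and Arhgap39 did not pass (-0.05). Ablim3, an actin-binding protein, was at the lowest value in NMuMG and at 2.14 and 2.72 CPM in shPCBP1. Dpysl5, a collapsin response mediator, went from 0.0355 and 0.0378 CPM to 0.95 and 0.998 CPM. Kalrn rose by 1.28 on the log2 scale. All of these but Kalrn and Arhgap39 reached the filter only through shPCBP1. In dataset 1, 56 were tested, and 0 passed in FAM3C KO in limma (0.309% of all genes), with 9 at an unadjusted p under 0.05 (10.2% of all genes). In LIFR KO 4 passed (6.47% of all genes), all lower (5.55%): Ablim3 (-2.77, adjusted p = 0.0591), Dpysl5 (-1.48, 0.0638), Kalrn (-0.86, 0.0478) and Arhgap39 (-0.69, 0.0555). Without LIFR KO clones 2 and 3 the count was 3 (2.22% of all genes). Between the knockouts 8 differed (8.28% of all genes), with Arhgap39, Kalrn, Limk1, Lrig1, Mical3, Rnd2 and Rras higher in FAM3C KO and Met, the receptor of hepatocyte growth factor, lower (-0.35, adjusted p = 0.0623). With the GC correction 0 of the 56 passed in LIFR KO and 0 between the knockouts in limma, with 8 and 14 at an unadjusted p under 0.05 (17.3% and 21.1% of all genes).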

How the data were processed

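The authors made stranded, rRNA-depleted libraries, aligned the reads to GRCm38 with Bowtie2 in Partek Flow 10.0.21, ran DESeq2 and deposited CPM (read counts scaled to a common library total) per library. The annotation release is not given in the sources used here. For dataset 2 the authors also deposited group means in CPM and their ratio (fold change), which were not used. The implied depths were 16031859 to 46901675 reads in dataset 1 and 53032111 to 56496537 in dataset 2. Of the low values, 90.5 to 92.7% and 93.7 to 94.3% were whole multiples of a step, too few to recover read numbers for a count test.

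Genes whose mean reached 0.5 CPM (12621 and 11384) were fitted per dataset with limma 3.58.1 (R 4.3.3) on log2(CPM + 0.1) with a trend, two-sided, with Benjamini-Hochberg adjustment over all genes tested and a threshold of 0.07 as in the study. Dataset 1 was fitted with its 3 groups together. The double KO stayed out. The GC correction subtracted, per library, a loess curve (span 0.3) of deviation on GC content. Alternatives were median-ratio rescaling, a pseudocount of 1 CPM, no filter, a replicate block, 2 groups alone, and leaving out libraries. In dataset 1 the replicate block left out the unaltered shPCBP1 line, which has no clone number. Combining the GC correction with rescaling or the block was added after the data were seen.

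Members and lists were chosen with earlier results of these data known. Values in every library are given for the navigators, for members past the threshold in dataset 1 or without overlap at a log2 fold change of at least 1 and a mean of 1 CPM, and for the 5 largest rises and falls in dataset 2. Coordinates and lengths are from GENCODE M21 (GRCm38) and promoters from RefSeq. No column was left unmapped. The fit was checked on simulated data. Tools were Python 3.11.15, pandas 2.3.3, scipy 1.17.1 and matplotlib 3.10.9.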

Additional observations from a re-analysis of the deposited data

Results flagged for a closer look

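In 3 of the 39 guidance genes tested, 1 of the 4 shPCBP1 lines lay far from the other 3 by Dixon's criterion, which chance meets in about 1 of 20 groups. Plxnc1 stood at 0.996 CPM in CT clone 3 and at 1.66 to 1.75 CPM in the others. Sema5a stood at 0.125 CPM in the unaltered line and at 2.34 to 2.79 CPM in the CT clones. Unc5c stood at 0.235 CPM in CT clone 1 and at 0.618 to 0.647 CPM in the others.

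The difference between the knockouts passed the test for 9 genes. In log2 units, FAM3C KO minus LIFR KO, these were 2.27 for Unc5c, 1.77 for Sema4a, 1.68 for Sema6b, 1.62 for Plxnd1, 1.11 for Sema3f, 1.04 for Plxna3, 0.85 for Plxnb2, 0.71 for Plxna1 and -0.75 for Sema3e, with adjusted p (limma) from 0.0323 to 0.0594. Unc5c was close to the filter (mean 0.597 CPM) and reached it through its level in FAM3C KO (mean 1.09 CPM), so its test was favoured by the filter. It was at the lowest value in LIFR KO clones 1 and 2. LIFR KO clones 2 and 3 stood apart by GC content, and none of the 9 passed with the GC correction.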

How the results depend on the processing

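In dataset 2 the count of 28 guidance genes past the threshold was 26 to 28 over the libraries left out in turn, each of which leaves 1 library in a group, and 28 with rescaling, with a pseudocount of 1 CPM and with the replicate block, whereas the median log2 fold change of 0.27 was -0.07 without the first and 0.02 without the second shPCBP1 library. Of the 51 signalling genes tested there 44 were called (80.1% of all genes), and 19 also had a fold change of at least 1.5 (31.1% of all genes). In dataset 1 the counts turned on single libraries, and the cause was not tested. For FAM3C KO against shPCBP1 (0 guidance genes besides Nav3), leaving out 1 library gave 0 to 3. The 3 (Nav2, Sema3e and Sema6a) passed without LIFR KO clone 1 (1.93% of all genes) or clone 3 (2.84%). A count of 1 was reached without LIFR KO clone 2 (Sema3e, 0.759%) or the unaltered line (Sema5a, 0.214%). The groups alone gave 8 (8.29%), the fit without LIFR KO clones 2 and 3 gave 8 (8.38%), and the GC correction gave 1 (Sema6a, 2.21%), also with rescaling. The GC correction with the block, which leaves out the unaltered line, gave 1 as well (Sema5a, 0.0716%). For LIFR KO (4), the range was 0 to 20. The count was 20 without LIFR KO clone 1 (57.4% of all genes), 0 without clone 2 (0.356%) and 7 without clone 3 (5.72%). Without any one of the CT clones it was 0 (0.0397 to 0.380%), and without the unaltered line 1 (0.199%). Leaving out FAM3C KO clone 1 or 3 gave 2 (1.26 and 1.10%). Rescaling gave 2, the groups alone 1, the fit without LIFR KO clones 2 and 3 gave 2, and the GC correction 0, also with rescaling and with the block. For FAM3C KO against LIFR KO (9), the range was 0 to 19. The count was 19 without LIFR KO clone 1 (52.9% of all genes), 2 without clone 2 (0.799%) and 12 without clone 3 (11.6%). It was 0 or 1 without any FAM3C KO clone (0.00793 to 0.515%) and 4 or 5 without any shPCBP1 line (2.91 to 4.20%). The groups alone gave 0 (13 at an unadjusted p under 0.05) and the GC correction 0, also with rescaling and with the block.

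For the signalling genes in FAM3C KO (0), leaving out 1 library gave 0 to 2 (2 without LIFR KO clone 3, where 2.84% of all genes passed). Of the 56, the groups alone gave 5 (8.29% of all genes) and the GC correction 1 (2.21%), also with rescaling (2.21%). The fit without LIFR KO clones 2 and 3 gave 6 of 57 (8.38% of all genes). In LIFR KO (4) the range was 0 to 28 (28 without LIFR KO clone 1, where 57.4% of all genes passed). The count was 2 after rescaling (3.88%) and 0 with the groups alone, the GC correction alone, with rescaling or with the block. Between the knockouts (8) the range was 0 to 27 (27 without LIFR KO clone 1, where 52.9% of all genes passed). The count was 0 with the groups alone and with each form of the GC correction.

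Same-numbered libraries did not deviate together (correlations of -0.19 to 0.15 in dataset 1 and 0.05 in dataset 2, and 2 of 9 libraries correlated best with their own number), so the numbers are names only. In dataset 1 the replicate block left out the unaltered shPCBP1 line, which has no clone number. With the block 1 guidance gene passed in FAM3C KO (0.119% of all genes) and 1 in LIFR KO (0.0794%), Sema5a in each. Sema5a passed in both also when the unaltered line alone was left out. With the block 0 differed between the knockouts (17 at an unadjusted p under 0.05, against 23.8% of all genes). Of the signalling genes 0 passed in LIFR KO and 0 between the knockouts.

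Of 1048 alternative values for the genes with values per library, 828 kept direction and side of the threshold, 152 fell short of it, 46 passed it anew and 20 changed sign, none of these past the threshold. In LIFR KO against shPCBP1, Nav1 was 0.17 without clones 2 and 3. With the GC correction alone, with rescaling and with the block, Sema3e was -0.0072, -0.0047 and -0.018 and Sema6b was 0.34, 0.34 and 0.50, and Sema4a was 0.057 with the last. For Plxnb2 in FAM3C KO, leaving out 1 library gave -0.038 (without CT clone 1) to 0.086. Between the knockouts Plxna2 was -0.079 with rescaling, -0.16 without LIFR KO clones 2 and 3, and -0.070, -0.073 and -0.073 with the 3 forms of the GC correction. Leaving out 1 library there gave -0.039 to 0.18 for Plxna2, -0.18 to 0.23 for Nav1, -0.99 to 0.089 for Nav2 and -0.15 to 1.27 for Sema6d. The other 2 values are untested ones of Nav3, where a pseudocount of 1 CPM gave log2 fold changes of -1.83 in FAM3C KO and -1.78 in LIFR KO in place of -4.23 and -3.96.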
